A study of Mus musculus with 4 samples.

Results

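The genes that encode Wnt ligands, their receptors, their secreted antagonists and the proteins that carry the signal to the nucleus were examined in ID8 cells with and without a knockdown of USP9X. ID8 is a mouse ovarian cancer line derived from ovarian surface epithelium, and USP9X is a deubiquitinase, an enzyme that removes ubiquitin from other proteins. Members were chosen by gene symbol only, as the numbered Wnt, Rspo, Fzd, Dkk, Sfrp, Axin and Dvl genes, the Tcf7 family, Lrp5, Lrp6, Lef1, Apc, Rnf43 and Znrf3. This rule found 55 of the 22063 genes in the deposited table, namely 19 Wnt ligands, 4 R-spondins, 10 Frizzled receptors, 2 Lrp co-receptors, 4 Dkk and 4 Sfrp antagonists, 2 receptor ubiquitin ligases, 3 Dishevelled genes, 3 Axin or Apc genes and 4 TCF/LEF factors.

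Messenger RNA of ID8 cells with a control shRNA (shCtrl, 2 libraries, genotype given as wild type) and of ID8 cells with an shRNA against USP9X (shUSP9X, 2 libraries, genotype given as a knockdown) was sequenced. The study's methods describe shRNA lentiviruses made with pLKO.1-puro but do not say how the sequenced cells were made. The shUSP9X libraries are named shUSP9X-21 and shUSP9X-22 in the deposited table, and their titles label them as replicates 1 and 2. What the numbers 21 and 22 stand for, which shRNA sequence or sequences these cells carried, and whether low oxygen or TGF-β1 was applied are not given for this experiment in the sources used here. Nothing in the labels says that the libraries of a group came from separate cultures, so that p-values measure the spread between these libraries, which may be technical. Library totals were 17232006 and 15611363 estimated counts for shCtrl replicates 1 and 2, and 19978889 and 17021261 for shUSP9X replicates 1 and 2, and values are given in this order throughout.

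Wnt proteins are secreted lipid-modified ligands that bind Frizzled receptors together with the co-receptor Lrp5 or Lrp6. In the absence of a ligand, a complex of Axin, Apc and the kinase Gsk3b marks beta-catenin for destruction, whereas ligand binding recruits Dishevelled and Axin to the receptor, and beta-catenin then enters the nucleus and partners with TCF/LEF factors. Dkk and Sfrp proteins block the ligand or co-receptor, Rnf43 and Znrf3 remove Frizzled from the cell surface, and R-spondins counter this removal. Wnt5a and Wnt11 are best known for beta-catenin independent signaling, and Wnt4 is required for development of the female reproductive tract.

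The knockdown was first checked at the targeted gene. Usp9x (ENSMUSG00000031010) was measured at 298 and 282 CPM (counts scaled to a common depth, with TMM library sizes) in shCtrl and at 19.7 and 20.5 CPM in shUSP9X. The groups did not overlap, and Usp9x fell by 3.85 on the log2 scale (SE 0.0585, edgeR adjusted p = 4.7e-26), which left 6.94% of the shCtrl level. With an offset for GC content and transcript length, explained below, the fall was 2.28. All adjusted p-values are Benjamini-Hochberg values of edgeR's quasi-likelihood test over the 11448 genes tested. Of 12 markers of ovarian surface epithelium and mesothelium, 11 and 11 lay above 3 counts in shCtrl and 9 and 10 in shUSP9X, with Krt8 at 5441, 5119, 11905 and 10141 counts and Wt1, a transcription factor of this epithelium, at 6210, 5892, 5070 and 4253 counts. Of these markers, 10 were tested, 4 were lower and 4 were higher, beside 33.6% and 33.8% of all genes tested. With the offset 6 were lower and 3 were higher, beside 27.4% and 36.6%. Krt18 rose from 6776 and 5882 counts to 11868 and 9980 counts, and Msln fell from 8207 and 7777 counts to 6955 and 5834 counts. Epcam lay at 4, 6, 1 and 6 counts and Krt7 at 0, 0, 2 and 3 counts. Muc16, a membrane mucin, fell from 33 and 43 counts to 1 and 0 counts.

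Of the 55 Wnt genes, 13 were at 0 counts in all 4 libraries. These were Wnt3, Wnt3a, Wnt8a, Wnt9b, Rspo2, Rspo4, Fzd3, Fzd10, Dkk1, Dkk4, Sfrp1, Sfrp2 and Sfrp5. A count of 0 allows up to 3 counts, which corresponds to 0.173, 0.19, 0.152 and 0.178 CPM in the 4 libraries (counting error only). A further 10 genes (Wnt7a, Wnt2b, Wnt16, Wnt8b, Rspo1, Fzd8, Fzd9, Dkk3, Rnf43 and Lef1) had counts but did not exceed 3 counts in both libraries of either group. The remaining genes were 31 that exceeded this floor in both groups and Dkk2, which exceeded it in shCtrl only. A filter on low counts kept 30 of the 55 genes for testing. Wnt1 and Dkk2 were above the floor in a group but were not tested.

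Among the 30 genes tested, 15 were lower in shUSP9X and 3 were higher at an edgeR adjusted p under 0.05, whereas 12 were not called. Over all genes tested, 33.6% were lower and 33.8% were higher. The genes lower in shUSP9X were Wnt4, Wnt5a, Wnt6, Wnt10b, Wnt11, Fzd1, Fzd4, Fzd5, Fzd6, Fzd7, Lrp6, Sfrp4, Apc, Axin2 and Tcf7, and the genes higher were Wnt7b, Wnt10a and Dvl3. The median log2 fold change of the 30 genes was -0.28, beside -0.0005 over all genes tested. The cutoff named in the study's methods is p under 0.05 without adjustment, with more than 1.5-fold change. It was applied here to edgeR values, whereas the study's methods name DESeq2. At this cutoff, 8 of the 30 genes (26.7%) were lower beside 18.7% of all genes, and 1 gene, Wnt7b (3.33%), was higher beside 10.8%. The shUSP9X libraries were both below the lower shCtrl library for 16 genes and both above the higher shCtrl library for 5 genes, and the groups overlapped for 9 genes, as the plot of CPM by library shows. The same orderings were not counted over all genes tested, so these counts only describe the 30 genes. In bulk RNA, fewer cells that express a gene and less RNA of it per cell cannot be told apart.

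**Figure D1:**
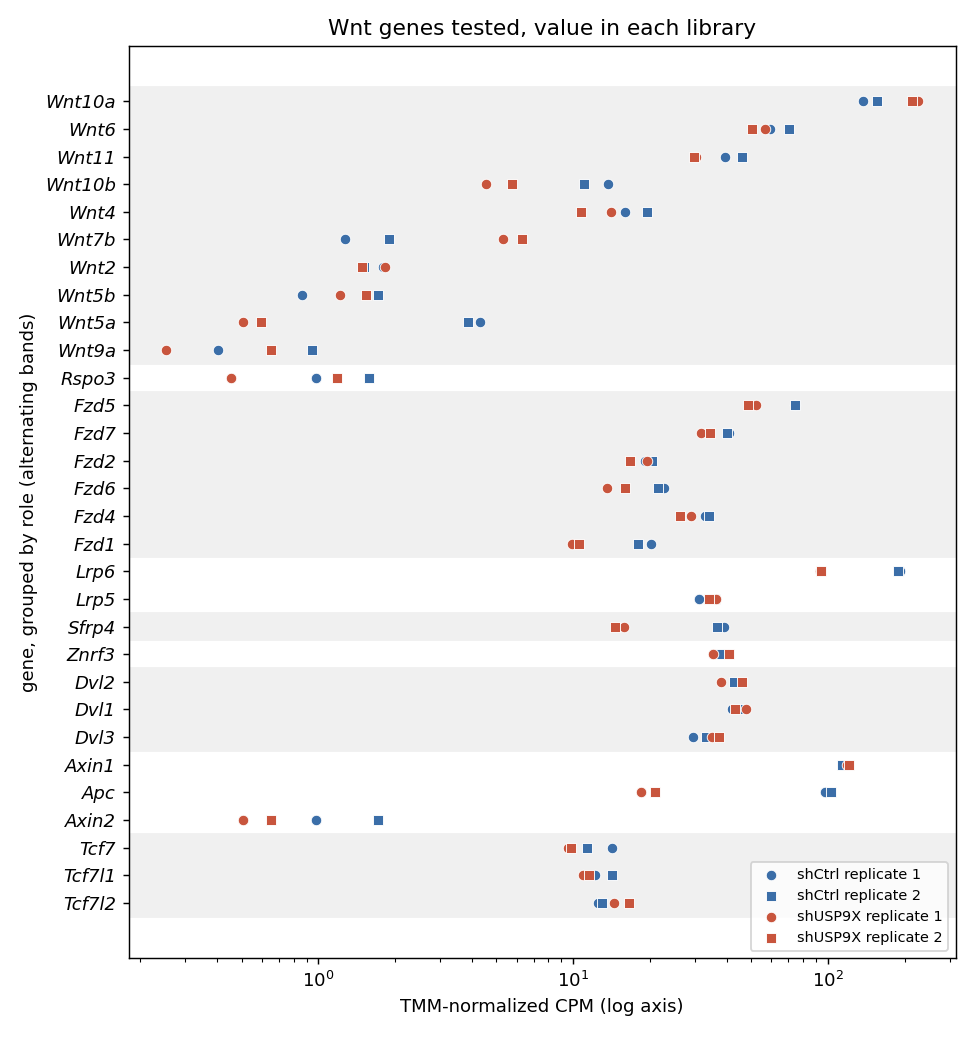
TMM-normalized CPM (log axis) of the 30 Wnt genes tested in each of the 4 libraries, 1 row per gene in bands by role, with shCtrl in blue and shUSP9X in red and replicates 1 and 2 as circles and squares. Apc (97.7 and 103 against 18.5 and 21 CPM), Wnt5a and Sfrp4 lie clearly to the left in shUSP9X, Wnt7b and Wnt10a lie to the right, and Wnt2, Wnt9a and Dvl1 overlap.

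Across all genes, fold changes moved with GC content and with transcript length. When genes were cut into 10 bins of equal size by GC content, the bin of lowest GC content had a median of -0.80 (log2) and that of highest GC content 0.19, and Spearman's rho across genes was 0.429 for GC content (11430 genes) and -0.322 for length. Across the 30 Wnt genes rho was 0.596 for GC content and -0.318 for length, and since genes within the same libraries are not independent replicates these values are descriptions. The Wnt genes ranged from 44.1% to 63.8% GC with a median of 54.7%, above the 49.6% median of all genes tested. A second fit therefore carried an offset that removed the trend of each library on GC content and length. With the offset, 15 of the 30 genes were lower and 4 were higher, beside 27.4% and 36.6% of all genes, and 15 genes had the same call in both fits. For genes whose fold change is given below, the value with the offset stands beside it where the offset made or ended a call, turned the direction of a called gene or moved its log2 fold change by more than 1.5 times.

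**Figure D2:**
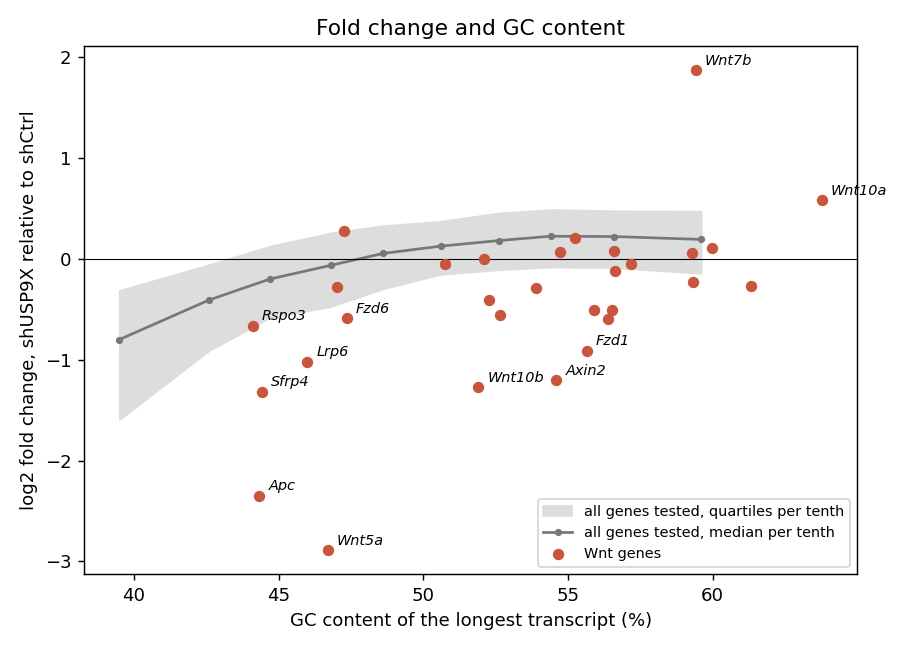
Log2 fold change (shUSP9X relative to shCtrl) against the GC content (%) of the longest transcript for the 30 Wnt genes (red points), over the median (line) and quartiles (band) of all genes tested in 10 bins of GC content. The median of all genes runs from -0.80 in the lowest bin to 0.19 in the highest, Apc and Wnt5a lie far below the band, and Wnt7b lies far above it.

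The stretches just upstream of the start sites were read for the members that fell, since these moved in the same direction. Of the 55 members, 36 were matched by symbol in a table of RefSeq start sites (GRCm38.p6), with 45 windows of 250 bases, and Wnt5a, Wnt7b, Wnt10a, Sfrp4, Lrp6 and Fzd6 were among those not matched. The letters CTTTGA, with which TCF/LEF factors are commonly associated, were searched on both strands (TCAAAG on the other strand). They were found in 5 of the 45 windows (11.1%), beside 13.8% of all 32851 windows in the table, and in windows of 3 of the 18 tested members that were matched. Of the 10 matched members that fell, 2 hold the letters. These 2, Fzd1 and Wnt11, are shown because they fell and hold the letters (a second window of Wnt11, chr7:98838595-98838844, does not hold them), and Wnt10b and Axin2 because they fell and do not. The windows are chr5:4758217-4758466 on the minus strand for Fzd1, chr7:98834862-98835111 on the plus strand for Wnt11, chr15:98778151-98778400 on the minus strand for Wnt10b and chr11:108920099-108920348 on the plus strand for Axin2, each written 5′ to 3′ along the gene, and capitals mark the letters searched.
Fzd1: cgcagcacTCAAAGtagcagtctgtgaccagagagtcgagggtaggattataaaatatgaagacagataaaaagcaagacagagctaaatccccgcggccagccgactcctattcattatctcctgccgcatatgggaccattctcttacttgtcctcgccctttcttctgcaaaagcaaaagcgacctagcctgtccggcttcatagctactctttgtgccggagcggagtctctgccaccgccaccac
Wnt11: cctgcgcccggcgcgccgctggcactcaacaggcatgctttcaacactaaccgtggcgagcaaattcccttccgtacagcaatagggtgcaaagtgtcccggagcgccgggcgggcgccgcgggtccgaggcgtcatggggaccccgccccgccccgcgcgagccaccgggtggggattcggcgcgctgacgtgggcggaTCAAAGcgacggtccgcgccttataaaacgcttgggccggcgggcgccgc
Wnt10b: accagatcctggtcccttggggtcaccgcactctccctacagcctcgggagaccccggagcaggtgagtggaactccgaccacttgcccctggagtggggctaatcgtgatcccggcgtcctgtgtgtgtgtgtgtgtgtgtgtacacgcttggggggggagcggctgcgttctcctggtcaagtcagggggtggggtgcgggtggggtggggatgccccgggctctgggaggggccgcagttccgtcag
Axin2: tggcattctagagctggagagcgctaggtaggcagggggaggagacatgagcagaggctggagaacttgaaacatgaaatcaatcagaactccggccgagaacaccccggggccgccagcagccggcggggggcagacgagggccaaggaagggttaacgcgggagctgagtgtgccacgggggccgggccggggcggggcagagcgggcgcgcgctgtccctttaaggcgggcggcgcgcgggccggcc
The match begins at position -242 from the start site in Fzd1 and at position -50 in Wnt11. A match is a description of these letters and not a binding site, and no match says only that these letters are not in this window.

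Of 19 ligand genes, 10 were tested, of which 5 fell, 2 rose and 3 were not called, beside 33.6% lower and 33.8% higher over all genes tested. Wnt10a (ENSMUSG00000026167, chr1:74791516-74804179 in GRCm38, GENCODE M21), the ligand with the highest level per transcript length, was measured at 137 and 156 CPM in shCtrl and 225 and 213 CPM in shUSP9X. Both shUSP9X libraries lay above both shCtrl libraries, and the difference was 0.58 on the log2 scale (SE 0.051, edgeR adjusted p = 1.2e-10). Wnt7b (ENSMUSG00000022382, chr15:85535437-85582473), a ligand known for epithelial signaling in lung and kidney, was measured at 22 and 30 counts in shCtrl and 105 and 106 counts in shUSP9X. It showed the largest rise among the 30 genes, 3.67-fold (log2 1.87, SE 0.27, edgeR adjusted p = 9.8e-07).

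Wnt5a (ENSMUSG00000021994, chr14:28504750-28527448) showed the largest fall among the 30 genes. It was measured at 75 and 61 counts in shCtrl and at 10 and 10 counts in shUSP9X, or 4.32 and 3.86 CPM against 0.506 and 0.594 CPM. The fall was 7.41-fold (log2 -2.89, SE 0.36, edgeR adjusted p = 9.6e-08), and among the 30 Wnt genes tested Wnt5a alone had at most 10 counts in both libraries of a group. Wnt10b (ENSMUSG00000022996, chr15:98770712-98778150), a ligand that signals through beta-catenin, was measured at 13.7 and 11.1 CPM in shCtrl and at 4.55 and 5.76 CPM in shUSP9X, 2.42-fold lower (log2 -1.27, SE 0.17, edgeR adjusted p = 2.7e-07). Wnt5a and Wnt10b thus fell with no overlap between the groups. Wnt1, which lies 11.7 kb from Wnt10b on chromosome 15, was not tested, with 8 and 13 counts in shCtrl against 5 and 5.

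Smaller falls were measured for Wnt11, Wnt4 and Wnt6. Wnt11 (ENSMUSG00000015957, chr7:98835112-98855195) was at 39.6 and 46 CPM in shCtrl and 30.4 and 29.8 CPM in shUSP9X (log2 -0.51, SE 0.085, edgeR adjusted p = 1e-05). Wnt4 (ENSMUSG00000036856) was at 15.9 and 19.5 CPM against 14.1 and 10.7 CPM (log2 -0.50, SE 0.14, edgeR adjusted p = 0.00203). Wnt6 (ENSMUSG00000033227, chr1:74771892-74785322) was at 59.3 and 70.5 CPM against 56.9 and 50.2 CPM (log2 -0.27, SE 0.076, edgeR adjusted p = 0.00265), and its log2 fold change was -0.46 with the offset. The groups did not overlap in any of the 3 genes, but the calls of Wnt4 and Wnt6 depended on single libraries. With 1 library left out, the log2 fold change ranged from -0.71 to -0.32 for Wnt4 and from -0.38 to -0.14 for Wnt6. Without shCtrl replicate 2 the log2 fold change was -0.35 for Wnt4 (edgeR adjusted p = 0.0564) and -0.14 for Wnt6 (edgeR adjusted p = 0.113), and without shUSP9X replicate 2 it was -0.32 (edgeR adjusted p = 0.059) and -0.18 (edgeR adjusted p = 0.0676).

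Wnt2, Wnt5b and Wnt9a were not called. Wnt9a (ENSMUSG00000000126) was measured at 0.404 and 0.949 CPM in shCtrl and 0.253 and 0.653 CPM in shUSP9X, with overlapping groups (log2 -0.59, SE 0.62, edgeR adjusted p = 0.411). The log2 fold change was 0.0034 for Wnt2 (SE 0.36) and 0.11 for Wnt5b (SE 0.42). At these counts, differences of the size seen for Wnt6 or Wnt11 were not detectable.

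The make-up of the ligand transcripts was compared on FPKM, which scales for transcript length and depth. The summed CPM of the 19 ligand genes was 275.7 and 313.9 in shCtrl and 340.8 and 320.7 in shUSP9X. These CPM sums, which are not scaled for transcript length, did not overlap and were higher in shUSP9X. The summed FPKM of the 19 ligand genes was 128.1 and 151.1 in shCtrl and 149.1 and 139.6 in shUSP9X, so that the groups overlapped. Within this sum, Wnt10a took 43.7% and 42.6% in shCtrl and 61.0% and 61.2% in shUSP9X. Wnt11 took 24.1% and 26% against 15% and 15.3%, and Wnt6 took 22.5% and 22.8% against 18.2% and 17.2%. In each of the 3 ligands the replicates lay closer to each other than to the other group. Wnt6 and Wnt10a are neighbours on the plus strand of chromosome 1 with 6.19 kb between them, and the ratio of Wnt10a to Wnt6 FPKM was 1.94 and 1.87 in shCtrl and 3.35 and 3.56 in shUSP9X. Wnt7b took 0.318% and 0.403% of the ligand sum in shCtrl and 1.1% and 1.39% in shUSP9X, and Wnt10b took 4.25% and 3.28% against 1.31% and 1.73%. With 2 libraries against 2, no exact test of a share can reach a p of 0.05, and these shares were not tested.

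**Figure D3:**
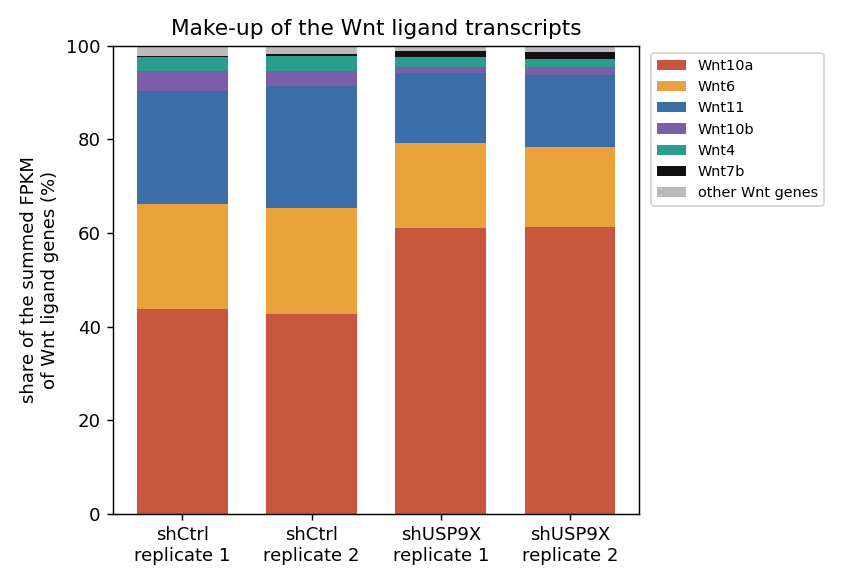
Share (%) of the summed FPKM of the 19 Wnt ligand genes in each of the 4 libraries, stacked by gene, with the ligands other than the 6 named ones in gray. Wnt10a fills 43.7% and 42.6% of the bar in shCtrl and 61.0% and 61.2% in shUSP9X, and the parts of Wnt6 and Wnt11 are smaller in shUSP9X.

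R-spondins, the secreted proteins that bind Lgr receptors and raise Frizzled levels, were near the floor. Rspo3 (ENSMUSG00000019880, chr10:29452416-29535867) was the only member of this group tested, at 0.98 and 1.58 CPM in shCtrl and 0.455 and 1.19 CPM in shUSP9X. The groups overlapped, and the log2 fold change was -0.66 (SE 0.48, edgeR adjusted p = 0.228), which ranged from -1.46 to -0.096 when 1 library was left out. Rspo1 had 2 counts in shCtrl replicate 1 and 0 in the other libraries.

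Of 10 Frizzled genes, 6 were tested, 5 fell and none rose (33.6% and 33.8% over all genes), and the summed FPKM of the receptors was 41.42 and 40.96 in shCtrl and 30.06 and 31.35 in shUSP9X. Fzd5 (ENSMUSG00000045005, chr1:64730558-64737751), the Frizzled gene with the highest FPKM, was measured at 74.5 and 74.1 CPM in shCtrl and 52.1 and 48.7 CPM in shUSP9X (log2 -0.56, SE 0.063, edgeR adjusted p = 1.3e-08). Fzd1 (ENSMUSG00000044674, chr5:4753839-4758035) was measured at 20.2 and 18 CPM in shCtrl and 9.92 and 10.5 CPM in shUSP9X, 1.88-fold lower (log2 -0.91, SE 0.12, edgeR adjusted p = 3.9e-07). Fzd1 had the largest fall among the receptors, and its level per length moved from 4.85 and 4.35 FPKM to 2.34 and 2.48 FPKM. Fzd6 (ENSMUSG00000022297, chr15:39006034-39038188), a receptor known for planar cell polarity, was measured at 22.7 and 21.5 CPM in shCtrl and 13.6 and 16 CPM in shUSP9X (log2 -0.59, SE 0.11, edgeR adjusted p = 6e-05). The deposited FPKM of Fzd6, 5.46 and 5.30 in shCtrl and 3.23 and 5.20 in shUSP9X, did not show the fall beyond the spread (limma adjusted p = 0.166 on log2(FPKM + 1)).

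Fzd7 and Fzd4 fell by less. Fzd7, a receptor linked to stem-like cells, was lower by a log2 value of -0.29 (edgeR adjusted p = 0.0025), which was -0.23 without shUSP9X replicate 1 (edgeR adjusted p = 0.0617). Fzd4, the receptor of Norrin and of Wnt ligands in retinal vessels, was at -0.27 on the same scale (edgeR adjusted p = 0.00864). The call of Fzd4 was lost without shUSP9X replicate 2 (log2 -0.20, edgeR adjusted p = 0.139), with DESeq2 at a similar size (log2 -0.27, DESeq2 adjusted p = 0.0505) and on FPKM (log2 -0.25 and -0.30, limma adjusted p = 0.0689 and 0.0713 with pseudocounts of 1 and 0.1), and under the offset its value was 0.037 (edgeR adjusted p = 0.726). Fzd2 was not called (log2 -0.12, edgeR adjusted p = 0.357) but was lower with the offset (log2 -0.26, edgeR adjusted p = 0.038). Without the offset, the log2 fold change of Fzd2 ranged from -0.24 to -0.0054 when 1 library was left out.

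The Lrp co-receptors depended on the offset. Lrp6 (ENSMUSG00000030201, chr6:134446476-134566965) was measured at 192 and 188 CPM in shCtrl and at 93.3 and 94.1 CPM in shUSP9X, 2.03-fold lower (log2 -1.02, SE 0.047, edgeR adjusted p = 2.1e-16). The replicates of Lrp6 lay close together and the groups far apart. Its longest transcript has 9368 bases at 46% GC, and with the offset the direction turned, at 0.29 (edgeR adjusted p = 7.1e-06). Lrp5 (ENSMUSG00000024913), with 8893 bases at 54.7% GC, was not called without the offset (log2 0.070, edgeR adjusted p = 0.487) and was higher with it (log2 0.69, edgeR adjusted p = 3.3e-07). The order of the co-receptors did not change, since the ratio of Lrp6 to Lrp5 FPKM was 3.51 and 2.93 in shCtrl and 1.46 and 1.53 in shUSP9X. The direction of Lrp6 thus differed between the fits.

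Secreted antagonists were represented by Sfrp4, since the other Sfrp genes were at 0 counts and no Dkk gene was tested. Sfrp4 (ENSMUSG00000021319, chr13:19623104-19632994) encodes a secreted decoy that carries a Frizzled-like domain. It was measured at 39.2 and 36.6 CPM in shCtrl and 15.8 and 14.6 CPM in shUSP9X, 2.49-fold lower (log2 -1.32, SE 0.098, edgeR adjusted p = 5.2e-12). The groups were far apart in FPKM too, with 22.1 and 19.8 in shCtrl against 9.50 and 8.38 in shUSP9X. Dkk2 (5 and 4 counts against 8 and 3 counts) was the Dkk gene with the highest FPKM and lay within a few counts of the floor. Dkk3 had 2 counts in shCtrl replicate 2 and 0 in the other libraries.

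The receptor ubiquitin ligase Znrf3 (ENSMUSG00000041961, chr11:5276324-5444847), a negative regulator of Frizzled and itself a target of beta-catenin, was measured at 40.4 and 38.1 CPM in shCtrl and 35.3 and 41 CPM in shUSP9X. The groups overlapped (log2 -0.046, SE 0.083, edgeR adjusted p = 0.638). Its relative Rnf43 was at 3 and 2 counts in shCtrl and 3 and 4 counts in shUSP9X, at or next to the floor in all libraries.

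The Dishevelled genes, which encode the cytoplasmic adaptors that bind Frizzled, were expressed at 14.4 ± 0.233 FPKM (Dvl2), 13.2 ± 0.824 FPKM (Dvl1) and 9.52 ± 0.581 FPKM (Dvl3) in shCtrl (SD, n = 2). Dvl2 (ENSMUSG00000020888, chr11:70000595-70012301) was measured at 43.8 and 42.9 CPM in shCtrl and 38.1 and 45.8 CPM in shUSP9X, with overlapping groups (log2 -0.051, SE 0.082, edgeR adjusted p = 0.595). Of the exonic bases of Dvl2, 18.28% are shared with Acadvl on the opposite strand. Whether the counting used strand is not given in the sources used here, so that the Dvl2 values are uncertain. How many Dvl2 counts could come from Acadvl was not tested. Other tested members also share exonic bases with a gene on the opposite strand, namely Fzd5 (17.83%), Rspo3 (13.07%), Wnt11 (8.8%), Wnt7b (6.61%), Wnt5a (4.58%), Tcf7l1 (4.56%), Axin2 (3.8%), Fzd6 (3.15%) and Dvl1 (0.72%), and of these opposite genes only that of Dvl1 is in the deposited table. Dvl1 was not called (log2 0.064, edgeR adjusted p = 0.47). Dvl3 was higher by 0.21 on the log2 scale (edgeR adjusted p = 0.0354). The call of Dvl3 was lost without shCtrl replicate 1 (log2 0.13, edgeR adjusted p = 0.223), without shUSP9X replicate 2 (log2 0.17, edgeR adjusted p = 0.189) and with the offset (log2 0.069, edgeR adjusted p = 0.475). It was also lost with library size scaling only (log2 0.18, edgeR adjusted p = 0.0699), with DESeq2 (log2 0.21, DESeq2 adjusted p = 0.129) and on FPKM (log2 0.16 and 0.17, limma adjusted p = 0.153 and 0.151 with pseudocounts of 1 and 0.1).

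In the destruction complex, Apc fell and Axin1 was not called. Apc (ENSMUSG00000005871), the scaffold that holds beta-catenin for phosphorylation and a tumor suppressor in the colon, was measured at 97.7 and 103 CPM in shCtrl and 18.5 and 21 CPM in shUSP9X. It was 5.09-fold lower (log2 -2.35, SE 0.073, edgeR adjusted p = 4.8e-20), with no overlap between the groups. The longest Apc transcript has 12811 bases at 44.3% GC, and with the offset the fall was smaller but still called (log2 -0.97, edgeR adjusted p = 1.6e-10). Axin1 (ENSMUSG00000024182, chr17:26138688-26195811), the limiting scaffold of the complex, was measured at 113 and 113 CPM in shCtrl and 119 and 120 CPM in shUSP9X (log2 0.078, SE 0.048, edgeR adjusted p = 0.158), and it passed only with upper quartile scaling (log2 0.11, edgeR adjusted p = 0.0463). The ratio of Apc to Axin1 FPKM was 0.282 and 0.258 in shCtrl and 0.0487 and 0.0567 in shUSP9X.

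Axin2 (ENSMUSG00000000142, chr11:108920349-108950783), a relative of Axin1 and a widely used readout of beta-catenin signaling, was close to the floor. It had 17 and 27 counts in shCtrl and 10 and 11 counts in shUSP9X, which corresponded to 0.98 and 1.71 CPM against 0.506 and 0.653 CPM. The groups did not overlap, and the log2 fold change was -1.20 (SE 0.48, edgeR adjusted p = 0.0299). The call was lost without shCtrl replicate 2 (log2 -0.76), without shUSP9X replicate 1 (log2 -1.02) and without shUSP9X replicate 2 (log2 -1.38). At a similar size, the call was also lost without the filter on low counts (log2 -1.19, edgeR adjusted p = 0.0781) and with DESeq2 (log2 -1.21, DESeq2 adjusted p = 0.132).

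Of the TCF/LEF factors, which bind DNA together with beta-catenin, Lef1 had 1 and 6 counts in shCtrl and 1 and 4 counts in shUSP9X, and the Tcf7 family was expressed at low levels. Tcf7 (ENSMUSG00000000782, chr11:52252371-52283014) was measured at 14.2 and 11.4 CPM in shCtrl and 9.51 and 9.85 CPM in shUSP9X (log2 -0.41, SE 0.14, edgeR adjusted p = 0.0146). The groups did not overlap, but the call was lost without shCtrl replicate 1 (log2 -0.23) and without shUSP9X replicate 1 (log2 -0.37). With DESeq2 the call of Tcf7 was also lost, at a similar size (log2 -0.40, DESeq2 adjusted p = 0.0865). Tcf7l1, which acts mostly as a repressor, was not called (log2 -0.23, edgeR adjusted p = 0.139) and was lower with the offset (log2 -0.38, edgeR adjusted p = 0.0144). Without the offset, the log2 fold change of Tcf7l1 ranged from -0.33 to -0.11 when 1 library was left out. Tcf7l2 was not called (log2 0.28, edgeR adjusted p = 0.0515) but passed without shUSP9X replicate 1 (log2 0.37, edgeR adjusted p = 0.0379), with upper quartile scaling (log2 0.31, edgeR adjusted p = 0.0299) and without the filter on low counts (log2 0.29, edgeR adjusted p = 0.0416).

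**Figure D4:**
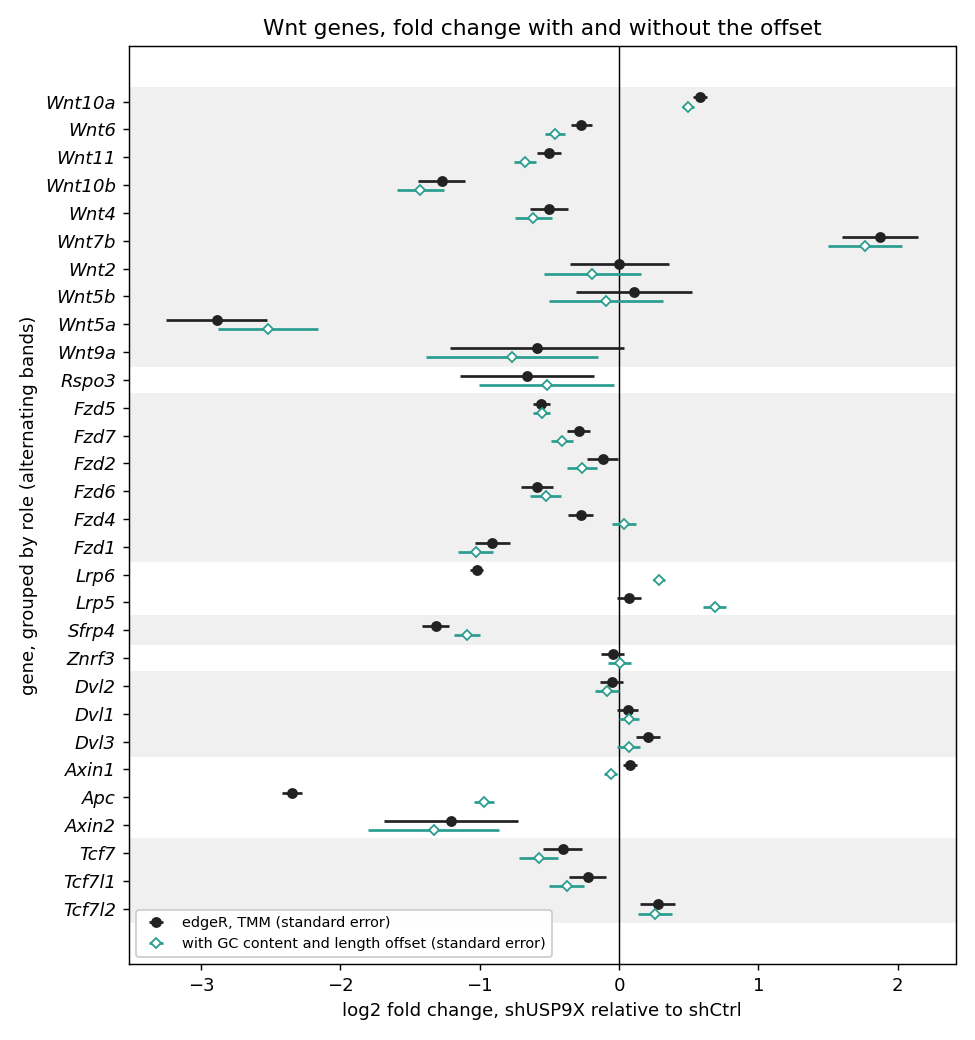
Log2 fold change (shUSP9X relative to shCtrl, with standard errors) of the 30 Wnt genes tested, in bands by role, from the edgeR fit (black circles) and from the fit with the GC content and length offset (open green diamonds). Lrp6 moves from -1.02 to 0.29 and Apc from -2.35 to -0.97 with the offset, whereas Wnt10a, Wnt7b, Wnt5a, Wnt10b, Fzd1 and Sfrp4 keep their side of 0.

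The stability of the calls differed among the genes. Over 15 alternative analyses (the study's cutoff not among them), or those of them that could be run for the gene, 9 of the 18 called genes kept their direction and their call, namely Wnt5a, Wnt7b, Wnt10a, Wnt10b, Wnt11, Fzd1, Fzd5, Sfrp4 and Apc. At the study's cutoff, which asks for a change of more than 1.5-fold, Wnt10a, Wnt11 and Fzd5 were not called. Wnt10a missed it narrowly at 1.498-fold, and Fzd6 passed it narrowly at 1.502-fold. The other 9 called genes, Wnt4, Wnt6, Fzd4, Fzd6, Fzd7, Lrp6, Dvl3, Axin2 and Tcf7, lost the call or changed direction in at least 1 alternative.

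Genes of the same pathway outside the symbol rule were counted in 4 lists. Of 53 genes tested in them, 25 were lower and 11 were higher, beside 33.6% and 33.8% of all genes, whereas with the offset 19 were lower and 19 were higher, beside 27.4% and 36.6%. Among genes for ligand secretion and extracellular control, 6 of 17 were tested, 3 were lower and 1 was higher (4 and 1 with the offset), with a median log2 fold change of -0.40. Wls, the carrier that escorts Wnt proteins to the cell surface, was measured at 214 and 214 CPM in shCtrl and 153 and 151 CPM in shUSP9X (log2 -0.50, SE 0.043, edgeR adjusted p = 1e-10), which was -0.13 with the offset. Gpc4, a glypican that binds ligands at the cell surface, was lower (11.5 and 12.5 CPM against 8.15 and 8.43 CPM, log2 -0.54, edgeR adjusted p = 0.00186). Apcdd1, a membrane-bound inhibitor, was higher (11 and 11.4 CPM against 20.7 and 21.1 CPM, log2 0.90, SE 0.12, edgeR adjusted p = 1.8e-07), and its log2 fold change was 2.08 with the offset. Porcn, the enzyme that attaches the lipid to Wnt proteins, had 34 and 36 counts against 29 and 23 counts and was not called (log2 -0.57, edgeR adjusted p = 0.149) but was lower with the offset (log2 -0.79, edgeR adjusted p = 0.0472). Porcn was named after its values were seen.

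Among other Wnt receptors and planar polarity genes, 12 of 18 were tested, 6 were lower and 2 were higher (median log2 -0.40), beside 33.6% and 33.8% of all genes. Adgra2, the receptor that endothelial cells use to recognise Wnt7 ligands together with Reck, was measured at 19.7 and 24.1 CPM in shCtrl and 7.79 and 10.6 CPM in shUSP9X (log2 -1.26, SE 0.14, edgeR adjusted p = 1.1e-08). The R-spondin receptors moved in different directions. Lgr5 was at 20.3 and 22.2 CPM against 12.6 and 13.4 CPM (log2 -0.71, edgeR adjusted p = 5.1e-06; with the offset -0.40), whereas Lgr6 was at 17 and 19 counts against 33 and 51 counts (log2 1.09, edgeR adjusted p = 0.0153). Lgr4, named after its values were seen, was at 173 and 183 CPM against 120.0 and 120.0 CPM (log2 -0.57, edgeR adjusted p = 4.5e-11), and its log2 fold change was -0.36 with the offset. With the offset the list held 6 genes lower and 4 higher, beside 27.4% and 36.6% of all genes.

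Among beta-catenin and its regulators, 20 of 22 were tested, 10 were lower and 4 were higher, beside 33.6% and 33.8% of all genes, and the list median was -0.26 on the log2 scale. Macf1, a long cytoskeletal linker that binds Axin, was measured at 588 and 598 CPM against 255 and 256 CPM (log2 -1.22, edgeR adjusted p = 1.8e-20), which was -0.14 with the offset. Gsk3b, the kinase of the destruction complex, was at 103 and 105 CPM against 64.0 and 69.6 CPM (log2 -0.64, edgeR adjusted p = 1.5e-10), and its fall was lost with the offset (log2 0.065, edgeR adjusted p = 0.303). Csnk1g3, a casein kinase that acts on Lrp6, was lower (82.1 and 81.3 CPM against 50.4 and 51.3 CPM, log2 -0.68, edgeR adjusted p = 1.3e-10; with the offset -0.32). With the offset the list held 6 genes lower and 6 higher, beside 27.4% and 36.6% of all genes. Ctnnb1, which encodes beta-catenin and was named after its values were seen, was at 861 and 884 CPM in shCtrl and 906 and 895 CPM in shUSP9X (log2 0.046, SE 0.032, edgeR adjusted p = 0.209). With the offset Ctnnb1 was called lower by a small amount (log2 -0.070, edgeR adjusted p = 0.0369), and its RNA does not report the amount of the protein.

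Among nuclear partners, 17 of 18 listed genes were in the table, 15 were tested, 6 were lower and 4 were higher (median log2 -0.037), and with the offset 3 were lower and 8 were higher. Over all genes the shares were 33.6% and 33.8%, and 27.4% and 36.6% with the offset. Tle2, a Groucho-type co-repressor of TCF factors, was measured at 33 and 25 counts in shCtrl and 4 and 0 counts in shUSP9X (edgeR adjusted p = 1e-05). Tle2 passed the filter on low counts only through its shCtrl libraries, so this p-value gives no separate support for the fall. Pygo2, a co-activator that reads histone H3, was at 48.1 and 47.8 CPM against 71.0 and 70.3 CPM (log2 0.56, edgeR adjusted p = 1.3e-08). Smarca4, the ATPase of SWI/SNF complexes, was at 258 and 277 CPM against 380 and 395 CPM (log2 0.53, edgeR adjusted p = 6.9e-12). Tle2 was thus at or next to the floor in shUSP9X, and Pygo2 and Smarca4 were higher with tight replicates.

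Genes known as targets of beta-catenin were also counted. Of 24 listed genes, 6 of which are also among the 55 Wnt genes, 14 were tested, 5 were lower and 6 were higher, beside 33.6% and 33.8% of all genes (7 and 6 with the offset, beside 27.4% and 36.6%), and the list median was -0.0062 on the log2 scale. The 5 lower genes were Axin2, Tcf7, Lgr5, Bmp4 and Vegfa, and the 6 higher genes were Fosl1, Myc, Apcdd1, Cd44, Ccnd1 and Birc5. With DESeq2, 3 targets were lower and 6 were higher, and the shares of all genes called with DESeq2 were not counted. Fosl1, a subunit of the AP-1 factor, was measured at 21.9 and 25.3 CPM in shCtrl and 89.6 and 98.2 CPM in shUSP9X (log2 1.99, SE 0.076, edgeR adjusted p = 3.4e-18). Myc was at 109 and 114 CPM against 220 and 218 CPM (log2 0.97, SE 0.045, edgeR adjusted p = 2.8e-16). Fosl1, Myc, Cd44 and Ccnd1 are also controlled by other pathways, whereas Nkd1, Notum, Dkk1 and Ascl2 were at 0 counts in all libraries.

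**Figure D5:**
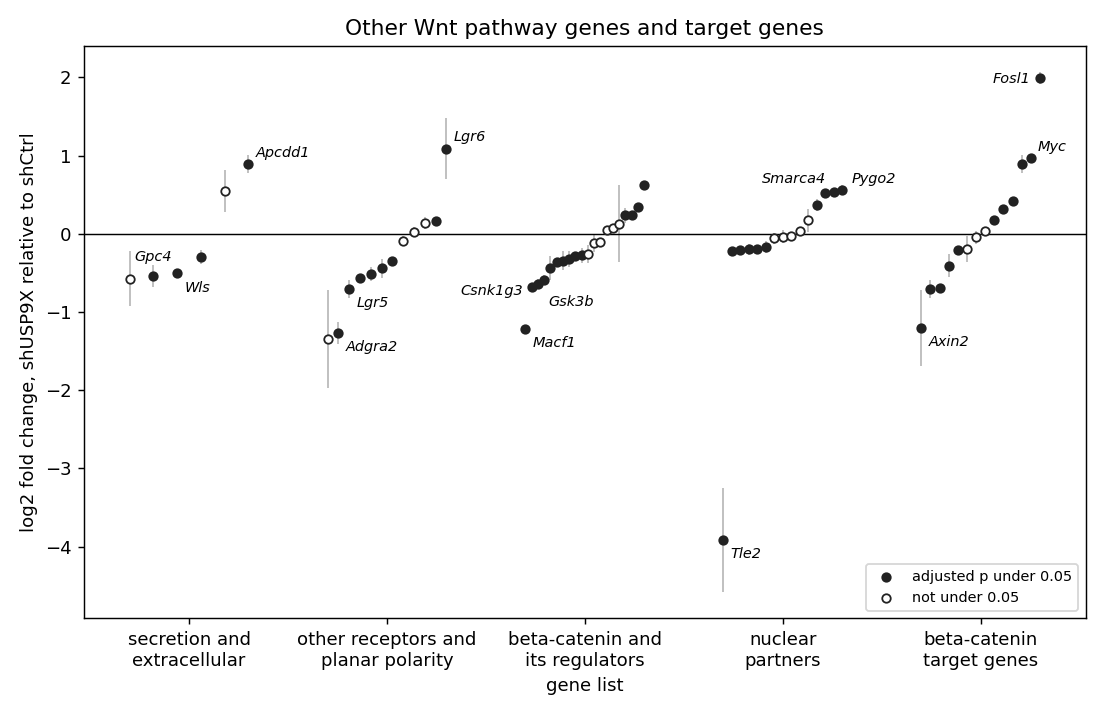
Log2 fold change (shUSP9X relative to shCtrl, with standard errors) of the tested genes in 4 lists of other Wnt pathway genes and in the list of beta-catenin target genes, sorted within each list, with filled points for an edgeR adjusted p under 0.05. The 3 largest called changes of each list are named, among them Tle2 with the lowest value, Macf1 at -1.22 and Fosl1 at 1.99.

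Markers of other cell types were read in the same libraries. The summed CPM of 10 leukocyte markers was 0.0577 and 0.0632 in shCtrl and 9.11 and 10.1 in shUSP9X, with 0 and 0 of the 10 above 3 counts in shCtrl and 5 and 4 in shUSP9X. Itgam was the most abundant (0 and 0 counts against 72 and 75 counts), followed by Adgre1 (0 and 0 against 58 and 59), Ptprc (0 and 0 against 29 and 18) and Csf1r (0 and 0 against 17 and 13). Cd3e, C1qa and C1qb were at 0 counts in all libraries, and Lyz2 was at 0, 0, 0 and 2 counts. Of the 8 fibroblast markers, 3 were tested, and these 3 (Col1a1, Dcn and Pdgfra) were lower, beside 33.6% lower and 33.8% higher over all genes. The summed CPM was 251.8 and 258.9 against 147.7 and 145.1. Dcn was the most abundant at 2919 and 2634 against 2434 and 2032 counts, and Pdgfrb, Lum and Dpt were at 0. With the offset 2 were lower and Dcn was higher, at 0.67 on the log2 scale, beside 27.4% and 36.6% of all genes. Of 7 endothelial markers, Tek was the most abundant at 172 and 165 against 109 and 105 counts and Cdh5, Kdr, Emcn and Cldn5 were at 0, and the summed CPM was 10.44 and 11.70 against 6.476 and 7.004. Of 6 granulosa cell markers none was tested, with a summed CPM of 0.2307 and 0.5059 against 0.860 and 0.5342, Inha the most abundant in shCtrl at 4 and 4 counts, and Foxl2, Fshr and Cyp19a1 at 0. The part of these markers in the changes of the Wnt genes was not tested.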

How the data were processed

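For each of 4 libraries (shCtrl and shUSP9X, 2 each, grouped by the labels' titles), the authors deposited estimated counts and FPKM values for each gene. The submitters' processing notes list fastp 0.18.0, Bowtie2 2.2.8, HISAT2, StringTie 1.3.1 and RSEM, and per the study's methods reads were mapped to GRCm38. The count strand setting and annotation release are not given in the sources used here. No column of the authors' own comparisons was present. Between 6.395% and 6.69% of the deposited estimated counts were not whole and were rounded.

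Counts were filtered (filterByExpr), scaled by TMM and tested with edgeR 4.0.16 (quasi-likelihood, R 4.3.3) over 11448 genes at a Benjamini-Hochberg adjusted p under 0.05 (group only, common coefficient of biological variation 0.0352). Replicates differed by more than sampling noise (chi-square per gene 3.41 and 2.23). CPM values are TMM-scaled. The deposited FPKM values were used for shares, ratios and limma 3.58.1. Alternatives were DESeq2 1.42.0, other scalings and filters, limma-trend on FPKM values (log2 with a pseudocount of 1 or 0.1) at a mean FPKM of at least 1, a loess offset (span 0.3) on GC content and length (known for 99.8% of the genes tested), a replicate block, the study's cutoff and each library left out. The edgeR test without the offset was run on simulated counts with 200 changed genes and a common dispersion. The offset, the replicate block, DESeq2 and limma were not tested on simulated data. Molecular identifiers are not described, so floors cover counting error only.

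Values per library were given for the 12 largest absolute log2 fold changes among members tested, the highest mean FPKM of each role and the 3 largest called changes of each list. The members, lists and rules were chosen with earlier results of these data known. Genes named outside it were picked with their values known.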

Additional observations from a re-analysis of the deposited data

How the results depend on the processing

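With the study's cutoff, 8 of 30 Wnt genes were lower and 1 was higher, 7 of 53 other Wnt pathway genes were lower and 3 higher, and 3 of 14 beta-catenin targets were lower and 3 higher, beside 18.7% and 10.8% of all genes. Upper quartile scaling gave 5 Wnt genes higher, and DESeq2 gave 3 targets lower. Shares of all genes called were not counted for upper quartile scaling or DESeq2. With the GC content and length offset, 19 other Wnt pathway genes were lower (25 without it) and 19 were higher (11 without it), and the median log2 fold change of the Wnt genes was -0.39. Without a filter on low counts that median was -0.44. The causes of these differences were not tested, except that the study's cutoff adds a minimum fold change. The median over all genes tested was 0.032 with upper quartile scaling and 0.049 with the offset.

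Leaving out 1 library at a time gave 11 to 14 Wnt genes lower and 2 to 4 higher, medians of -0.33 to -0.19, 21 to 27 other pathway genes lower and 8 to 13 higher, 3 to 4 targets lower and 6 to 6 higher, and -3.89 to -3.80 for Usp9x. The group with a lone library is assumed to vary like the other group.

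The replicate numbers pair no samples by the labels, and replicate deviations of the groups were not alike (correlation -0.0453). With a replicate block, 15 Wnt genes were lower, 3 were higher and their median was -0.28, and Usp9x was at -3.85. The block with the offset gave 17 other pathway genes lower and 20 higher, and the median of the Wnt genes was -0.39. Shares of all genes called were not counted with the block, so these counts are descriptions.

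Called genes that turned direction were Lrp6 (0.29 with the offset, with or without the block) and Fzd4 (0.037 with the offset, 0.035 with block and offset). Genes not called turned as follows. Wnt2 was at -0.025 with library size only, -0.0033 with at least 10 counts, -0.0004 with the block, -0.19 with the offset and -0.20 with both. Wnt5b was at -0.092 and -0.059, Znrf3 at 0.0038 and 0.0032 and Axin1 at -0.0588 and -0.0588 with the offset and with both. With 1 library left out, the ranges were -0.15 to 0.15 for Wnt2, -0.31 to 0.67 for Wnt5b, -1.37 to 0.14 for Wnt9a, -0.020 to 0.18 for Lrp5, -0.15 to 0.066 for Znrf3, -0.18 to 0.085 for Dvl2 and -0.0095 to 0.14 for Dvl1.

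Depth limits the 25 Wnt genes not tested and those near the floor (Axin2, Wnt9a, Rspo3, Wnt2, Wnt5b), where changes of moderate size were not detectable. With 2 libraries a group, an exact permutation test could not reach a p of 0.05, so all calls rest on the spread shared across genes. The labels do not say whether the cells were pooled or cloned, and RNA levels do not report protein levels or pathway activity.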
